A study of Mus musculus with 32 samples.

Results

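Schwann cell and myelin genes were followed across synaptic and extra-synaptic regions of skeletal muscle from mice of 2 ages. The 8 genes were *S100b*, *Sox10*, *Cdh19*, *Kcna1*, *Mbp*, *Pmp22*, *Cnp* and *Mag*, and they were picked by their gene names from the 24952 genes of the count and TPM tables (TPM scales the reads for transcript length and library total). The samples were neuromuscular junction (NMJ) regions and regions away from the junction (xNMJ), cut by laser from cross sections of the tibialis anterior (TA) muscle in which the acetylcholine receptors had been stained with bungarotoxin. Every mouse was a wild-type male of the C57BL/6JRj strain, caged alone and given the AIN93M diet, for 2 to 3 months in the 10-month-old group and for 16 months in the 30-month-old group. The 4 groups, NMJ and xNMJ at 10 months (10m) and at 30 months (30m), held 8 libraries each. Each library pooled many captured regions, which were recognised by the stain and not by any of the 8 genes. The labels do not tie libraries to animals, so p values measured the spread between these libraries, which may in part be technical.

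Schwann cells are the glia of peripheral nerve. Myelinating Schwann cells wrap the motor axon up to its last branches, and unmyelinated terminal Schwann cells cover the nerve ending at the junction itself. Both kinds arise from the neural crest and carry S100b and the transcription factor Sox10, whereas compact myelin proteins such as Mbp and Pmp22 mark the wrapping cells. The junction also holds muscle fibre nuclei, fibroblasts and immune cells, so that a captured region is a mixture. In such a mixture, fewer Schwann cells and less RNA per Schwann cell cannot be told apart.

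Library totals lay between 4026648 and 16516788 counts. Their medians were 9605869 for 10m NMJ against 6062117 for 10m xNMJ, and 9825357 for 30m NMJ against 6790011 for 30m xNMJ. The 3 counts taken as the floor of detection corresponded to between 0.182 and 0.745 CPM (counts scaled to a common library total), for counting error only. This range does not include the TMM scaling factors of the libraries, 0.686 to 1.35, by which the CPM levels given below were also divided. The 8 genes together collected 29589 counts in 10m NMJ and 21524 in 30m NMJ, but 547 in 10m xNMJ and 1146 in 30m xNMJ. Of the 64 values of 8 genes in 8 libraries, 36 in 10m xNMJ and 37 in 30m xNMJ were at or under 3 counts, and 25 in each were 0. In the NMJ groups, 0 of 64 were that low at either age.

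One library stood apart from its group. Replicate 5 of 30m xNMJ held 37 of the 44 *S100b* counts of its group, 79 of the 81 *Cdh19* counts, 24 of the 25 *Kcna1* counts and 128 of the 177 *Mbp* counts. It was also the deepest xNMJ library, with 13182475 counts, and had the longest average insert of its group, 130 bases. The same library held 1062 of the group's 1063 counts of *Chrne*, the epsilon subunit of the acetylcholine receptor that only subsynaptic nuclei of adult muscle express strongly, and its *Chrne* level was 33.1% of the 30m NMJ mean. The other 4 genes were higher in another library of the group. *Sox10* had 1 count in replicate 5, *Mag* 6 of 40 and *Cnp* 33 of 192, and *Pmp22* was at 21.0 CPM against 26.5 CPM in the highest library. Results of the 8 genes that rest on this library are given with and without it.

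*S100b* encodes a calcium-binding protein of glia and is found in all Schwann cells, and also in fat cells. In 10m NMJ its lowest, median and highest levels were 24.2, 41.9 and 49.8 TPM, and in 10m xNMJ 0, 0.0714 and 0.856 TPM. The groups did not overlap, and 4 of the 8 xNMJ libraries had no read of it. At 30 months the NMJ levels were 5.52, 23.2 and 37.8 TPM and the xNMJ levels 0, 0 and 1.92 TPM, again without overlap. The log2 fold change of NMJ over xNMJ was 7.32 (SE 0.85, adjusted p = 1.9e-07 by the quasi-likelihood test of edgeR) at 10 months and 4.94 (SE 0.73, adjusted p = 1.6e-05) at 30 months. Without replicate 5 of 30m xNMJ, the latter was 6.59, and without replicate 3 of 10m xNMJ, which held 5 of the 10 counts of its group, the former was 8.17.

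*Sox10* encodes the transcription factor that Schwann cells need at every stage from the neural crest onward. Its lowest, median and highest levels were 3.85, 5.92 and 11.6 TPM in 10m NMJ and 0, 0 and 0.788 TPM in 10m xNMJ, where 6 of 8 libraries had no read. In 30m NMJ they were 4.39, 6.56 and 9.14 TPM and in 30m xNMJ 0, 0.0142 and 0.277 TPM. NMJ and xNMJ were fully separated at both ages. In counts the log2 fold change was 5.58 (SE 0.81, edgeR adjusted p = 8.3e-06) at 10 months and 6.00 (SE 0.83, adjusted p = 5.8e-06) at 30 months. Replicate 1 of 10m xNMJ carried 6 of the 9 *Sox10* counts of its group, and against the 3 counts of the other 7 the mean CPM of 10m NMJ was 174 times as high, with a 95% Poisson interval of 59.6 to 844 for counting error only. Replicate 4 of 30m xNMJ carried 4 of the 7 counts of its group, and against the 3 counts of the others the ratio was 153, with an interval of 52.3 to 741.

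*Cdh19*, an adhesion protein of the cadherin family that is a marker of Schwann cells and their precursors, was more scattered between NMJ libraries than *Sox10*. Levels in 10m NMJ were 1.06, 4.44 and 11.7 TPM (lowest, median and highest) and in 10m xNMJ 0, 0 and 0.150 TPM, with no overlap. In 30m NMJ they were 1.04, 4.07 and 14.7 TPM, and in 30m xNMJ 0, 0 and 1.55 TPM, the last value being that of replicate 5. At 30 months 2 of the 8 NMJ libraries lay below this library in CPM. Over all libraries the log2 fold change was 6.74 (SE 1.16, edgeR adjusted p = 1.0e-04) at 10 months and 3.68 (SE 0.92, adjusted p = 0.0065) at 30 months. Replicate 5 of 10m xNMJ held 3 of the 5 counts of its group, and the ratio of mean CPM in 10m NMJ to the 2 counts of the others was 274, with a 95% Poisson interval of 75.9 to 2264. With that library kept, the ratio of mean CPM at 10 months was 111. Without replicate 5 of 30m xNMJ, the other 7 libraries held 2 counts, and the ratio of mean CPM in 30m NMJ to theirs was 225, with a 95% Poisson interval of 62.3 to 1857 for counting error only. With replicate 5 kept, the ratio of mean CPM at 30 months was 14.8. At both ages the library left out was the highest of its xNMJ group, so leaving it out could only raise the ratio. The log2 fold change at 30 months was 3.07 without replicate 5 of 30m NMJ, which alone held 877 of the 1589 *Cdh19* counts of its group.

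*Kcna1* encodes the Kv1.1 potassium channel, which in nerve is best known from the axon membrane beside the nodes of Ranvier. Levels in 10m NMJ were 1.17, 4.27 and 12.7 TPM, and in 10m xNMJ 0, 0 and 1.24 TPM. All 14 counts of the 10m xNMJ group came from replicate 1, which lay above 1 of the 8 NMJ libraries. The other 7 had 0 counts, and against the floor of 3 counts over these 7 libraries together 10m NMJ had a mean at least 228-fold higher. With replicate 1 kept, the ratio of mean CPM in 10m NMJ to that in 10m xNMJ was 30.8. Levels at 30 months were 3.51, 6.50 and 9.96 TPM in NMJ and 0, 0 and 0.458 TPM in xNMJ, without overlap. For NMJ over xNMJ the log2 fold change was 5.25 (SE 1.01, edgeR adjusted p = 4.3e-04) at 10 months and 5.50 (SE 0.99, adjusted p = 2.6e-04) at 30 months. Without replicate 5, the other 7 libraries of 30m xNMJ held 1 count, and the ratio of mean CPM in 30m NMJ to theirs was 591, with a 95% Poisson interval of 106 to 23340 for counting error only. With replicate 5 kept, the ratio of mean CPM at 30 months was 60.7. At both ages the library left out was the highest of its xNMJ group, so leaving it out could only raise the ratio.

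**Figure D1:**
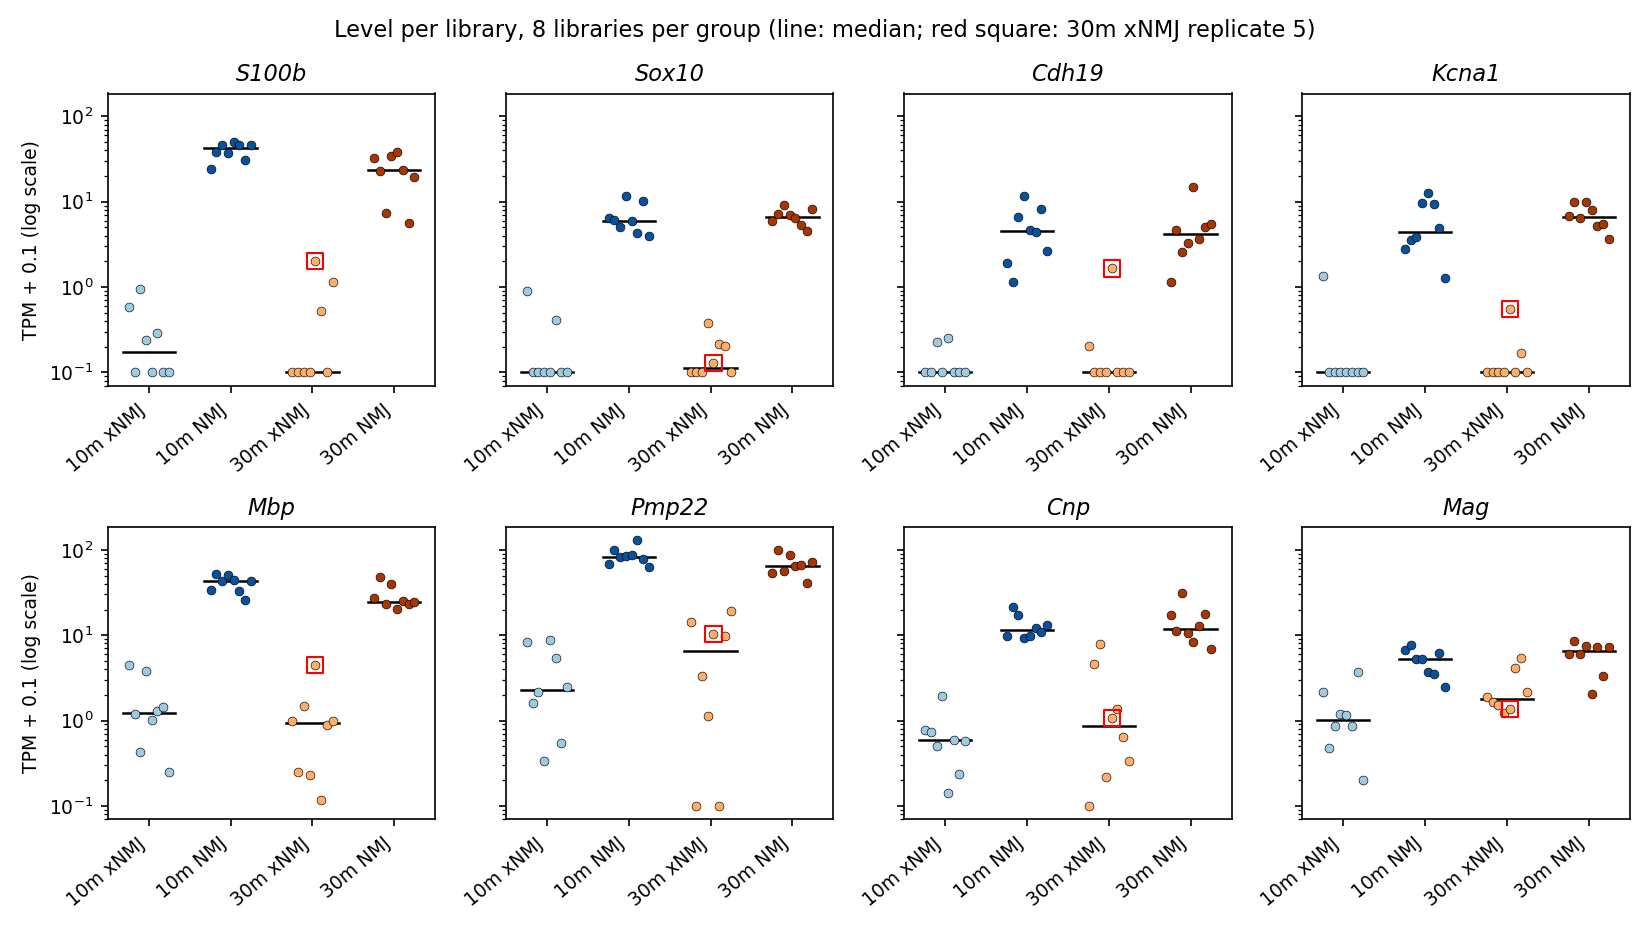
Level of each of the 8 genes in each of the 32 libraries, on a log axis of TPM with 0.1 added so that values of 0 can be drawn (at 0.1). Points are libraries, lines are medians of 8, and the red square marks replicate 5 of 30m xNMJ, which lies at the top of its group for *S100b*, *Cdh19*, *Kcna1* and *Mbp*.

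Among the myelin genes, *Mbp* encodes myelin basic protein, which seals the inner faces of the myelin membrane. In 10m NMJ its lowest, median and highest levels were 25.7, 42.8 and 51.8 TPM, against 0.147, 1.14 and 4.40 TPM in 10m xNMJ. In 30m NMJ they were 20.0, 24.7 and 48.0 TPM, against 0.0176, 0.838 and 4.38 TPM in 30m xNMJ. The regions did not overlap at either age. *Mbp* had a log2 fold change of 3.95 (SE 0.55, edgeR adjusted p = 4.2e-06) at 10 months and 3.89 (SE 0.55, adjusted p = 8.4e-06) at 30 months. Without replicate 5 of 30m xNMJ the value at 30 months was 4.85. GENCODE M21 lists 14 coding transcripts of *Mbp*, of 354 to 4797 bases, and reads were summed over those that the authors' reference held.

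*Pmp22* encodes a membrane protein of compact myelin whose gene dosage is altered in inherited neuropathies, and it is also expressed outside nerve. It was the most abundant of the 8 genes. Levels were 63.3, 83.3 and 129 TPM in 10m NMJ and 0.234, 2.21 and 8.69 TPM in 10m xNMJ. At 30 months they were 40.6, 65.2 and 98.7 TPM in NMJ and 0, 6.43 and 18.9 TPM in xNMJ. There was no overlap at either age, although 30m xNMJ spread from no read in 2 libraries to 18.9 TPM. The log2 fold change was 4.26 (SE 0.68, edgeR adjusted p = 3.2e-05) at 10 months and 2.68 (SE 0.62, adjusted p = 0.0038) at 30 months.

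*Cnp* encodes an enzyme of the non-compacted myelin channels, and low levels occur in many other cells. In 10m NMJ it measured 9.29, 11.5 and 21.2 TPM and in 10m xNMJ 0.0404, 0.487 and 1.84 TPM, without overlap. In 30m NMJ it measured 6.84, 11.8 and 31.1 TPM and in 30m xNMJ 0, 0.763 and 7.76 TPM, where the highest xNMJ library lay above 1 of the 8 NMJ libraries. The log2 fold change was 3.86 (SE 0.73, edgeR adjusted p = 3.5e-04) at 10 months and 2.52 (SE 0.68, adjusted p = 0.0126) at 30 months. Replicate 4 of 10m xNMJ held 45 of the 75 *Cnp* counts of its group, and without it the value at 10 months was 4.63. Without replicate 3 of 30m xNMJ the value at 30 months was 3.16. The exons of *Cnp* share 154 bases with those of *Dnajc7* on the opposite strand, and since the reads carried no strand, reads from that stretch could belong to either gene. No exonic overlap with another gene was found for the other 7.

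*Mag* encodes myelin-associated glycoprotein, which sits on the innermost myelin layer facing the axon. It was the least abundant in counts, with 471 in 10m NMJ and 419 in 30m NMJ. Its levels were 2.34, 5.13 and 7.50 TPM in 10m NMJ and 0.104, 0.919 and 3.64 TPM in 10m xNMJ. At 30 months they were 1.98, 6.52 and 8.52 TPM in NMJ and 1.11, 1.67 and 5.27 TPM in xNMJ. The regions overlapped at both ages, and in CPM 2 of the 8 NMJ libraries lay at or below the highest xNMJ library at each age. The log2 fold change of counts was 2.64 (SE 0.61, edgeR adjusted p = 0.0031) at 10 months and 2.14 (SE 0.60, adjusted p = 0.0171) at 30 months. The annotation gives *Mag* 6 coding transcripts between 338 and 2434 bases long. Its TPM did not follow its counts closely. Replicate 7 of 30m xNMJ was at 5.27 TPM on 9 counts (2.16 CPM), and replicate 1 of 10m NMJ at 6.70 TPM on 71 counts (7.31 CPM). The part of transcript length in this was not tested.

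On GRCm38, the genome assembly used by the authors, *S100b* spans chr10:76253853-76261159 on the forward strand, *Pmp22* chr11:63128982-63159547 forward and *Cnp* chr11:100574904-100591729 forward. On the reverse strand lie *Sox10* at chr15:79154908-79165240, *Cdh19* at chr1:110888326-110977584, *Kcna1* at chr6:126640397-126646384 and *Mag* at chr7:30899176-30914873. All the genes were called higher in NMJ than in xNMJ at both ages. The 250 bases before their RefSeq starts were searched for the core letters of Sox family sites, ACAAAG or ACAATG on either strand. Of the 4 genes with a window that were searched, *Cnp* and *Mag* held ACAAAG, while the windows of *S100b* and *Pmp22* held neither. Over all genes with a window, 28.2% held one of them, so the match is a description and not a binding site. The 2 matching windows are shown 5′ to 3′ in the direction of the gene, with ACAAAG or its complement CTTTGT in capitals. The motif begins 167 bases before the RefSeq start of *Cnp* at chr11:100574939, which differs from the gene start given above. For *Mag* the motif lies on the opposite strand, and the CTTTGT shown begins 67 bases before the outermost RefSeq start. The *Cnp* sequence (GRCm38.p6 chr11:100574689-100574903, forward) ends before the first annotated exon base, and the *Mag* sequence is GRCm38.p6 chr7:30914923-30915172, reverse.
Cnp: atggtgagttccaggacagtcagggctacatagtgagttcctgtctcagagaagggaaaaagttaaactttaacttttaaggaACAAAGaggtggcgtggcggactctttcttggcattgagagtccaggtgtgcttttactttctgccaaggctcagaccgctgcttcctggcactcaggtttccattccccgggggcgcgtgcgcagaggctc
Mag: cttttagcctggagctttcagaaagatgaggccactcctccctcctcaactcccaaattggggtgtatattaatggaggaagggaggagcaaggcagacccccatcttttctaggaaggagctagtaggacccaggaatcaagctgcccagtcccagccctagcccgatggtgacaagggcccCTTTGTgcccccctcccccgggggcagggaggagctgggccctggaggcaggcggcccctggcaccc

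Ordered by mean TPM in 10m NMJ, *Pmp22* (86.4 ± 20.7, SD, n = 8) was followed by *Mbp* (40.6 ± 9.15) and *S100b* (39.8 ± 8.96), then by *Cnp* (12.9 ± 4.24), *Sox10* (6.60 ± 2.77), *Kcna1* (5.92 ± 4.05), *Cdh19* (5.07 ± 3.56) and *Mag* (4.99 ± 1.77). *Mbp* and *S100b* did not differ beyond their spread, nor did the 4 lowest genes from one another. The library ranges of *Pmp22* and *Mbp*, and of *S100b* and *Cnp*, did not overlap. In 30m NMJ the first 4 places were the same, at 67.5 ± 18.7, 28.8 ± 9.73, 22.8 ± 11.9 and 14.4 ± 7.76 TPM, but the range of every gene overlapped that of the next.

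All 8 genes passed the test as higher in NMJ than in xNMJ at 10 months, where 6.50% of the 13990 tested genes were called higher in NMJ. All 8 also passed at 30 months, where 5.0% of genes were called higher. The median log2 fold change of the 8 was 4.76 at 10 months and 3.79 at 30 months, against 0.0036 and -0.01 over all tested genes. All 8 had entered the test because at least 8 libraries reached 1 CPM, which in xNMJ libraries alone was met by 3 of them, so the NMJ libraries decided their entry and the counts of 8 are a description. On the log2(TPM + 1) scale, which understates the change of low genes, limma gave folds from 1.50 for *Mag* to 5.08 for *S100b* at 10 months and from 1.08 for *Mag* to 3.99 for *Mbp* at 30 months. There *Cdh19* was at 2.33, *Kcna1* at 2.41 and *Sox10* at 2.70 at 10 months, well below their values from counts. The 8 calls at each age were also made without any 1 library, replicate 5 of 30m xNMJ included. Median library totals were higher in NMJ at both ages. The average insert was 101 to 131 bases in 15 of the 16 NMJ libraries and 52 in the other, and 79 to 109 bases in 15 of the 16 xNMJ libraries and 130 in replicate 5 of 30m xNMJ. With the insert size of the labels as a covariate all 8 were still called at both ages.

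**Figure D2:**
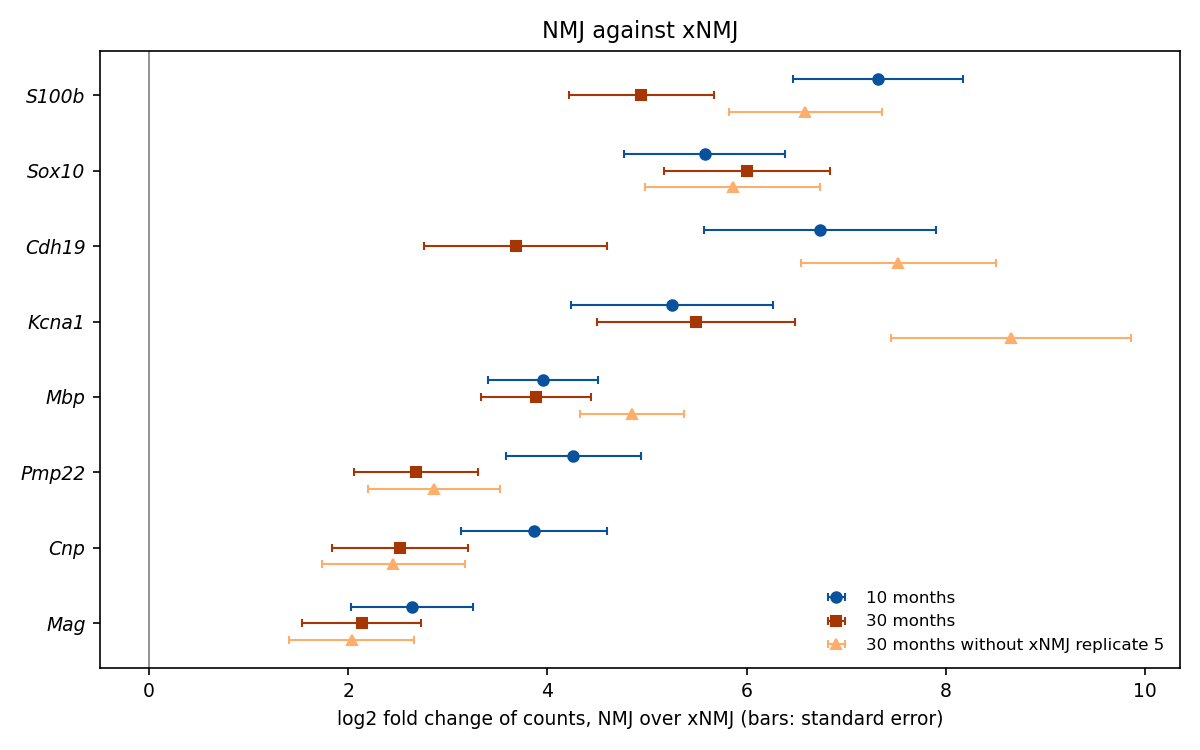
Fold change between regions for the 8 genes on a log2 scale, with standard errors from edgeR, at 10 months, at 30 months and at 30 months without replicate 5 of xNMJ. All points lie above 0, and without that library the fitted values of *Cdh19* and *Kcna1* rest on 2 and 1 xNMJ counts and depend on the prior count of the fit.

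Of 12 further Schwann cell markers, 6 were tested, and 4 rose in NMJ at both ages with 0 lower, where 6.50% and 5.0% of all tested genes did (median log2 fold change 2.48 at 10 months and 2.83 at 30 months). *Matn2*, a matrix protein made by Schwann cells, had a mean of 47.5 CPM in 10m NMJ against 2.93 CPM in 10m xNMJ, and *Erbb3*, the receptor for axonal neuregulin, 17.8 against 0.379 CPM. At 10 months their log2 fold changes were 4.0 and 5.79. Another gene that passed at both ages was *Scn7a*, a sodium channel gene of glia, with 2.50 and 3.09 at the 2 ages, while *L1cam* (1.28 and 0.55) and *Ngfr* (0.18 and 1.58) passed at neither. *Foxd3* and *Sox2* were not in the table.

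Of the 6 further Schwann cell markers tested, 3 would have been tested on the xNMJ libraries alone, as would 3 of 12 among the further myelin genes and 2 of 8 among the myelination signals, so NMJ levels decided the entry of the others and these counts are a description. The same background holds for every list count below, 6.50% and 5.0% of the 13990 genes called higher and 5.05% and 4.25% called lower in NMJ at 10 and 30 months.

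Of 15 further myelin genes 12 were tested, and at both ages 9 rose and 1 fell in NMJ (median 4.87 at 10 months and 3.24 at 30 months). *Gjc3*, a connexin of glial cells, rose by 1.72 and 1.53 on the log2 scale. *Cldn19*, a tight junction protein that Schwann cells use at their membrane loops, ran the other way, with 19.2 CPM in 10m NMJ against 49.9 CPM in 10m xNMJ and a log2 fold change of -1.37 at both ages.

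Of 10 genes of the signals that drive myelination, 8 were tested and 3 rose at each age. *Lgi4*, a secreted protein that Schwann cells need for myelination, rose by 5.66 on the log2 scale at 10 months and 4.80 at 30 months, and *Erbb3* is listed here too. *Adgrg6*, a receptor on Schwann cells that starts myelination, rose by 4.61 and 3.16. *Nab1*, a partner of the myelin transcription factors of the Egr family, gave -0.28 and -1.11 and passed at neither age. *Pou3f1* was not in the table.

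At the border between axon and glia, 2 of 8 tested genes out of 9 rose at each age. *Kcna2*, the Kv1.2 channel that assembles with Kv1.1, had 42.5 CPM in 10m NMJ against 5.53 CPM in 10m xNMJ, with log2 fold changes of 2.96 and 2.35. *Cntnap2*, the Caspr2 protein that holds these channels beside the node, rose by 1.02 at 10 months (edgeR adjusted p = 0.034) and gave 0.88 at 30 months (adjusted p = 0.086). The second gene to rise at 30 months was *Gldn*, gliomedin, a Schwann cell protein at the nodes, with 1.95 (adjusted p = 0.038) after 0.80 at 10 months. *Cntn2*, the contactin that partners Caspr2, gave -0.45 and -0.29 and passed at neither age.

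Transcripts of the motor neuron itself were scarce. Of 11 such genes 1 was tested, and the summed median over the list was 1.18 CPM in 10m NMJ against 4.21 CPM in 10m xNMJ. *Chat*, the enzyme that makes acetylcholine, had 0.459 CPM in 10m NMJ against 1.04 CPM in 10m xNMJ, while *Syt2* and *Nefm* had 0.686 and 0.344 CPM in 10m NMJ. Genes of other cells that share markers with Schwann cells were also low. None of the 4 oligodendrocyte genes in the table was tested, and their most abundant gene, *Mog*, had a mean of 0.889 CPM in 10m NMJ against 0.0307 CPM in 30m NMJ. *Mobp* and *Olig2* were at 0.0741 CPM and 0 in 10m NMJ.

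Of 5 melanocyte genes 1 was tested. It was *Mitf*, a transcription factor with forms in many tissues, with 15.7 CPM in 10m NMJ against 24.4 CPM in 10m xNMJ, while *Pmel* and *Dct* had 0.440 and 0.486 CPM in 10m NMJ. The fat cell gene *Plin1*, which coats lipid droplets, was called lower in NMJ, with log2 fold changes of -1.62 at 10 months and -1.63 at 30 months. *Adipoq* and *Cidec* had 0.0142 and 0.0249 CPM in 10m NMJ. In 30m NMJ *Adipoq* had 1.43 ± 2.62 CPM (SD, n = 8), with 6 of the 8 libraries at or under 3 counts, and its part in the *S100b* levels was not tested.

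Cells other than Schwann cells also differed between the regions. Of 5 fibroblast genes 4 rose in NMJ at both ages, and their summed CPM in the lowest, median and highest library was 854, 1154 and 1346 in 10m NMJ and 112, 143 and 343 in 10m xNMJ. *Dcn*, a collagen-binding proteoglycan, was the most abundant, at 891 and 121 CPM. *Lum*, *Col1a2* and *Pdgfra*, with 93.5, 95.8 and 16.6 CPM in 10m NMJ, also passed at both ages, while *Col1a1*, with 28.95 CPM, passed at neither. Of 7 macrophage genes, 4 rose at 10 months and 3 at 30 months, and the summed median was 100.3 CPM in 10m NMJ against 14.4 CPM in 10m xNMJ. Over the NMJ libraries of both ages *Mrc1*, the mannose receptor, was the most abundant, followed by *C1qb* and *Csf1r*. *C1qb* and *Csf1r* had 28.6 and 15.3 CPM in 10m NMJ, where *Cd68* was above *Csf1r* at 26.5 CPM (SD 49.7). In 30m NMJ *Cd68* had 3.44 CPM and *Csf1r* 16.1 CPM. *Mrc1* and *C1qb* passed at both ages, *Cd68* and *C1qa* at 10 months, *Adgre1* at 30 months and *Csf1r* at neither. All 5 fibroblast genes would have been tested on the xNMJ libraries alone, but 2 of the 7 macrophage genes, so NMJ levels decided the entry of the other 5.

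Of 5 mast cell genes 4 rose at both ages, but 0 of the 5 would have been tested on the xNMJ libraries alone, and the count is a description. Their summed median was 29.4 CPM in 10m NMJ against 0.818 CPM in 10m xNMJ, with *Cma1*, a chymase, in the lead before *Mcpt4*, *Tpsb2* and *Cpa3*, while *Kit* passed at neither age. Of the 3 perineurial genes 2 were tested. *Cldn1*, a tight junction protein of the nerve sheath, rose at 10 months from 0 to 4.11 CPM and did not pass at 30 months (2.61 against 0.835 CPM, adjusted p = 0.48), while *Slc2a1* passed at neither age. In 30m xNMJ 7 of the 8 libraries were at or under 3 counts of *Cldn1*. Replicate 5 had the highest sum over the perineurial genes in that group, 7.43 CPM, and no *Cldn1* value without it is given. *Itgb4* was at 0.0998 CPM in 10m NMJ. The part of these lists in the contrast of the Schwann cell genes was not tested.

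Endothelial and pericyte genes did not follow the Schwann cell genes. Of 5 endothelial genes tested, 0 rose at either age and *Cdh5* fell at 30 months by 1.29 on the log2 scale, while *Kdr* and *Vwf* passed at neither age. Of 5 pericyte genes, *Cspg4*, a proteoglycan that terminal Schwann cells carry as well, rose by 1.92 and 1.79, and *Rgs5* and *Abcc9* fell at 30 months by 0.83 and 0.70. Among 3 tested satellite cell genes *Sdc4*, which many cells express, rose by 2.40 and 1.79, whereas *Vcam1* and *Pax7* passed at neither age.

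Of 10 synaptic genes of the muscle fibre, 6 of which would have been tested on the xNMJ libraries alone, 9 rose at both ages, led by *Prkar1a* (1833 CPM in 10m NMJ against 46.1 CPM in 10m xNMJ) and *Chrna1* (535 and 24.0 CPM). *Lrp4*, the agrin receptor, was called lower in NMJ (1087 against 4356 CPM at 10 months), with log2 fold changes of -2.0 at 10 months and -1.91 at 30 months. Of 6 fibre genes 4 fell at both ages, namely *Tnnt3*, *Acta1*, *Ckm* and *Atp2a1* with log2 fold changes of -0.92, -0.75, -1.08 and -0.87 at 10 months, while *Myh4* gave -0.54 (adjusted p = 0.11).

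Age was asked about next, within the junction. None of the 8 genes passed the test between 30m NMJ and 10m NMJ, where 0% of the 13990 genes were called in either direction by edgeR and 372 had an unadjusted p under 0.05. DESeq2 likewise called 0, with 529 unadjusted. Among the 8, 0 had an unadjusted p under 0.05 in this fit of all 4 groups. The largest change was that of *S100b*, with a log2 fold change of -0.87 (SE 0.60, unadjusted p = 0.15, edgeR adjusted p = 0.9998), and its level in 7 of 8 libraries of 30m NMJ was below the median of 10m NMJ. *Mbp* followed with -0.60 (SE 0.48), and all 8 libraries of 30m NMJ lay below the 10m NMJ median of 66.9 CPM, although the groups overlapped. *Pmp22* gave -0.45 (SE 0.58), with 7 of 8 libraries below the median. A fit of the NMJ libraries alone, in which xNMJ did not enter the estimate of the spread, gave similar folds with smaller errors. There edgeR called 0 genes and 717 had an unadjusted p under 0.05, among them *Mbp* at -0.61 (SE 0.19, unadjusted p = 0.0050, adjusted p = 0.74), *Pmp22* at -0.46 (SE 0.17, unadjusted p = 0.013, adjusted p = 0.81) and *S100b* at -0.88 (SE 0.33, unadjusted p = 0.016, adjusted p = 0.82). With limma on log2(TPM + 1), *S100b* gave -0.97 (unadjusted p = 0.0034, adjusted p = 0.70).

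The other 5 genes changed less, from -0.14 for *Mag* to 0.10 for *Kcna1*. *Kcna1* lay above the 10m NMJ median in 7 of 8 libraries of 30m NMJ, and *Cdh19* below it in 6 of 8. The median over the 8 was -0.14, against 0.02 over all tested genes. Standard errors on the log2 scale were 0.48 to 0.81 in the fit of all 4 groups and 0.17 to 0.53 in that of the NMJ libraries alone. These 8 libraries per age did not show a difference, and they do not show that the levels were equal.

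The spread between libraries changed unevenly. The coefficient of variation of *S100b* in CPM was 22.6% in 10m NMJ and 59.4% in 30m NMJ, and that of *Cnp* 28.9% and 50.4%. The values of *Cdh19* (76.6% and 102%), *Mbp* (23.9% and 29.0%), *Pmp22* (19.0% and 25.2%) and *Mag* (51.7% and 53.9%) were also higher in 30m NMJ. For *Sox10* the coefficient was 48.5% and 18.5%, and for *Kcna1* 70.6% and 34.1%. No test of spread was made.

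In xNMJ regions none of the 8 genes passed between the ages either, where 0.0429% of genes were called. The log2 fold changes of 30 over 10 months were 3.00 for *Cdh19* (SE 1.12, unadjusted p = 0.0116, edgeR adjusted p = 0.37), 1.50 for *S100b* (SE 0.85), 1.41 for *Cnp* (SE 0.69) and 1.13 for *Pmp22* (SE 0.62). Without replicate 5 of 30m xNMJ they were -0.84, -0.14, 1.47 and 0.96, the first on 2 counts at 30 months and 5 at 10 months. The values of *Cdh19* and *S100b* thus turned in direction when 1 library was left out, and those of *Cnp* and *Pmp22* did not. *Cnp* (unadjusted p = 0.0495, adjusted p = 0.53) nevertheless ranged from 0.77 without replicate 3 of 30m xNMJ to 2.18 without replicate 4 of 10m xNMJ. *Kcna1* gave -0.14 (SE 1.14), on 14 counts from 1 library at 10 months and 25 counts at 30 months, 24 of them from 1 library. These 2 comparisons use the same libraries as those between regions.

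The fold change between regions could differ with age. None of the 8 genes passed this interaction, in which edgeR called 0% of all genes and 708 had an unadjusted p under 0.05, and DESeq2 called 9. *Cdh19* gave -3.06 (SE 1.38, unadjusted p = 0.034, edgeR adjusted p = 0.93) and *S100b* -2.37 (SE 1.04, unadjusted p = 0.029, adjusted p = 0.90). Without replicate 5 of 30m xNMJ these were 0.79 and -0.73, the former on 2 *Cdh19* counts in 30m xNMJ.

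**Figure D3:**
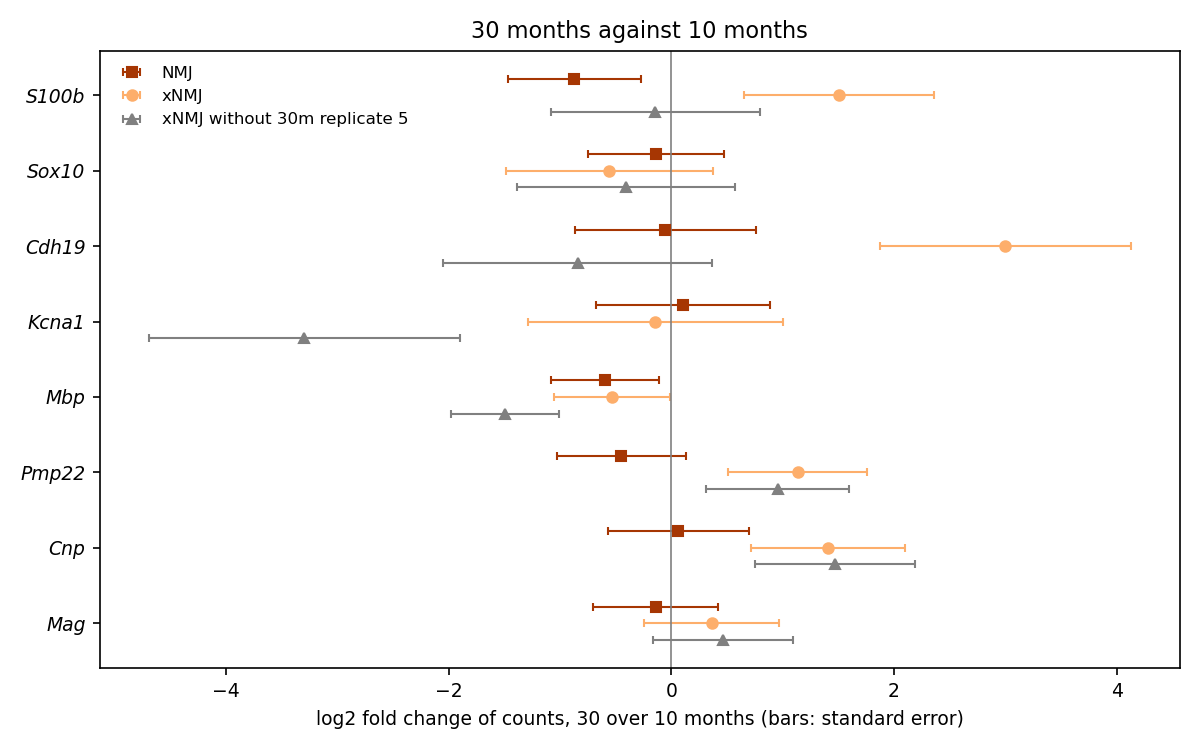
Fold change of 30 over 10 months for the 8 genes on a log2 scale, with standard errors from edgeR, in NMJ regions, in xNMJ regions and in xNMJ regions without replicate 5 of 30m xNMJ. In NMJ the points lie between -0.87 and 0.10, and in xNMJ *S100b* and *Cdh19* move from above to below 0 when that library is left out.

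The balance of a myelin gene and a gene of all Schwann cells was measured in each library as the log2 ratio of *Mbp* to *S100b* CPM. It was 0.62 ± 0.34 (SD, n = 8) in 10m NMJ, between 0.24 and 1.06. In 30m NMJ it was 1.13 ± 0.98 (n = 8), between -0.34 and 2.70, so that the older libraries lay on both sides of the younger ones. The difference of 0.51 did not pass (two-sided exact permutation test, p = 0.19). It was 0.72 without replicate 5 of 30m NMJ (exact permutation p = 0.047), the library with the highest *S100b* level of its group in CPM.

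How the 8 genes vary together was examined over the 16 NMJ libraries after removing the mean of each age. Over the 28 pairs the median Pearson r was 0.20, from -0.44 to 0.58, and 17 pairs were above 0. Over all pairs of tested genes the median was 0, and the 5th and 95th percentiles were -0.485 and 0.497. The median of the 8 genes was exceeded by 26.3% of all gene pairs. None of the 28 pairs passed an adjusted p of 0.05, and 1 had an unadjusted p under 0.05.

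That pair was *Kcna1* and *Pmp22*, with r = 0.58 (permutation p = 0.011, adjusted p = 0.30) and rho = 0.61 (permutation p = 0.012, adjusted p = 0.33). Without the 2 libraries farthest from the median r was 0.59. Within the ages r was 0.74 at 10 months and 0.51 at 30 months (n = 8 each, exact permutation p = 0.036 and 0.19). *S100b* and *Pmp22* had r = 0.56 (permutation p = 0.051, adjusted p = 0.60) and rho = 0.39 (permutation p = 0.17, adjusted p = 0.56), and r was 0.25 without 2 libraries, so that this value rests on them. Within the ages it was 0.14 and 0.70 (exact permutation p = 0.74 and 0.059).

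Among the myelin genes, *Mbp* and *Pmp22* had r = 0.38 (permutation p = 0.16, adjusted p = 0.60, rho = 0.34 with permutation p = 0.22). Within the ages the values of r at 10 and 30 months were 0.0052 and 0.65 for *Mbp* and *Pmp22*, -0.11 and 0.61 for *Mbp* and *Mag*, and 0.19 and 0.49 for *Pmp22* and *Mag*. None of these 6 had an exact permutation p under 0.05, and the difference between the ages was not tested. *Cnp* had a median r of -0.18 with the other 7 genes, its highest being 0.02 with *Mbp*. *Pmp22* had the highest median, 0.34. The median over the pairs was 0.10 at 10 months and 0.17 at 30 months.

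**Figure D4:**
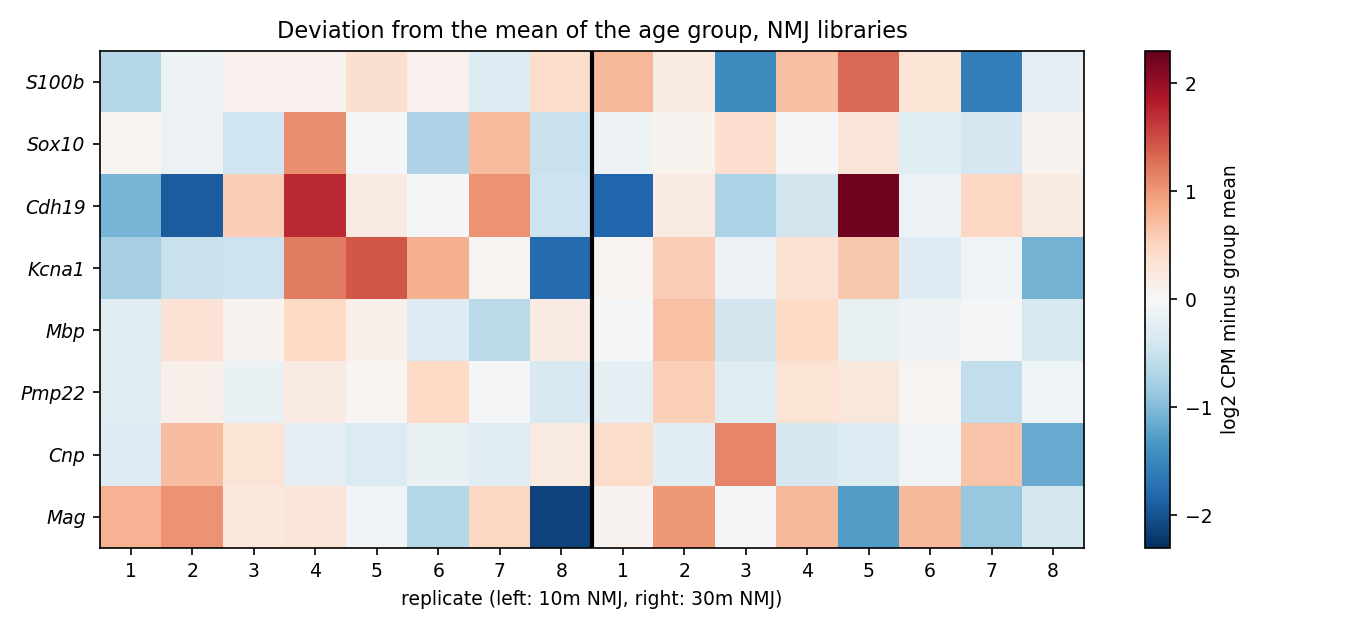
Deviation of each gene in each NMJ library from the mean of its age group, in log2 CPM, as colours from blue (lower) to red (higher). The deviations run from -2.14 to 2.21, and no library is high or low for all 8 genes.

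**Figure D5:**
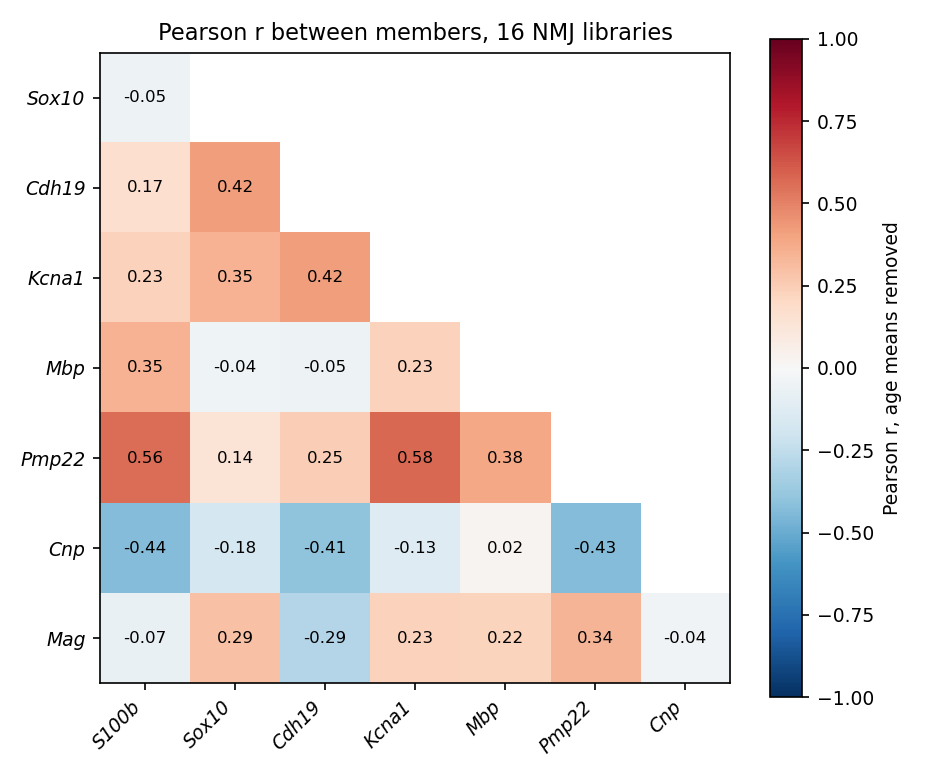
Pearson r for each of the 28 pairs of genes over the 16 NMJ libraries, age means removed. The values run from -0.44 to 0.58, and 6 of the 7 pairs that hold *Cnp* are below 0.

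Replicate 4 of 10m NMJ had the highest mean deviation over the 8 genes, 0.90 in units of each gene's SD, and was above its group mean for 7 of the 8, with the highest *Sox10* and *Cdh19* of its group. Replicate 2 of 30m NMJ was also above its group mean for 7 of 8 genes, with 0.70, and *Cnp* was the exception in both libraries. Replicate 8 of 10m NMJ had the lowest, -0.72, with the lowest *Kcna1*, *Pmp22* and *Mag* of its group and the highest *S100b* in CPM. This library had an average insert of 52 bases, where the other NMJ libraries had 101 to 131. Over 32 relations of the 8 genes with insert size, library total, the mean of the synaptic genes and the mean of the fibroblast genes, 0 passed an adjusted p of 0.05. The lowest p was that of *S100b* with the synaptic genes, with r = 0.46 (permutation p = 0.015, adjusted p = 0.30) and rho = 0.49 (permutation p = 0.044), and r was 0.43 without 2 libraries. In all, 5 relations had an unadjusted p under 0.05. *Cdh19* and library total had r = 0.56 (permutation p = 0.033, adjusted p = 0.30) and rho = 0.42 (permutation p = 0.12), and r was 0.54 without 2 libraries. *Mag* had r = 0.55 with the fibroblast genes (permutation p = 0.034, adjusted p = 0.30, rho = 0.36 with permutation p = 0.19) and r = -0.52 with library total (permutation p = 0.045, adjusted p = 0.30, rho = -0.41 with permutation p = 0.13), which became 0.30 and -0.044 without 2 libraries, so that the latter rests on them. *Kcna1* and insert size had r = 0.58 (permutation p = 0.047, adjusted p = 0.30) and rho = 0.34 (permutation p = 0.20), and r was 0.39 without 2 libraries. *Mag* and insert size had r = 0.51 (permutation p = 0.10, adjusted p = 0.39) and rho = 0.17 (permutation p = 0.51), and r was -0.34 without 2 libraries, so that this value rests on them.

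Of 9047 genes that averaged 5 CPM or more in NMJ, those that followed the mean of the 8 genes best over the 16 NMJ libraries were *Eral1* (r = 0.85), *Clpp*, *Rabif*, *Crip2*, *Tom1*, *Usp39*, *Xrn1*, *Rad50*, *Hs2st1* and *Mcee* (r = 0.76). They are the extremes of 9047 values and are given as a description. *Tom1* was called higher in NMJ at both ages, with log2 fold changes of 1.32 and 1.14, and *Hs2st1* at 10 months (1.9). *Usp39* and *Mcee* were lower in NMJ at 30 months, with -1.60 and -1.01. Among the Schwann cell and axoglial genes of the lists, *Kcna2* had r = 0.60 at rank 99, *Matn2* 0.58 at rank 147 and *Erbb3* 0.52 at rank 297, whereas *Cntn2* had -0.53 at rank 8783.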

How the data were processed

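NMJ and xNMJ regions of mouse TA muscle had been sequenced in 32 libraries, grouped here by their labels. For these the authors made cDNA with the SMART-Seq v4 kit, trimmed single-end reads with cutadapt 1.9.1 and assigned them with kallisto 0.43.1, per the submitters' processing notes, to protein-coding transcripts of GRCm38. Counts were deposited as integers, which the authors had summed from transcripts to genes and left without normalization. The deposited TPM values were scaled by the authors for transcript length and library total. Both were used as deposited, and 0 columns lacked a sample.

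Counts were tested with edgeR 4.0.16 in R 4.3.3 (TMM factors, 4 groups in 1 quasi-likelihood fit, at least 1 CPM in at least 8 libraries, 13990 of 24952 genes) with Benjamini-Hochberg adjustment over all tested genes and a threshold of 0.05. The analysis was checked on simulated data. DESeq2 1.42.0, limma 3.58.1 on log2(TPM + 1) and log2(TPM + 0.1), other filters, insert size and leaving out libraries were alternatives. Correlations used log2 CPM with a prior count of 2, age means removed and 100000 permutations within age, with all permutations within each age of 8 libraries, adjusted over 28 pairs or 32 relations. Leaving out 2 libraries removed the 2 farthest from the median of the measure on the x axis. Gene positions came from GENCODE M21 and promoter sequences from RefSeq (GRCm38.p6, 4 of the 7 genes looked up). *Mbp* positions and sequence, and the values of some listed genes, are not reported here.

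The 8 genes, the other lists and the tests were chosen with earlier results of these data known. Named were the 8 genes, from each list the 3 with the highest mean CPM in NMJ libraries and any called lower in NMJ, and the 10 genes most like the mean of the 8. *Chrne* and other genes behind counts of 5 or fewer were named after their values were seen.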

Additional observations from a re-analysis of the deposited data

Results flagged for a closer look

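Single libraries stood apart from the other 7 of their group, by Dixon's test at the 95% level, in 10 of the 32 groups of 8 libraries looked at in CPM (8 genes in 4 groups). Chance flags about 1 in 20 groups of normally distributed values, and 9 of the 10 lay in xNMJ groups, whose low counts are not of that kind. In replicate 5 of 30m xNMJ this held for *S100b* at 3.27 CPM (37 counts, the next library at 1.11 CPM), *Cdh19* at 6.98 CPM (79 counts, next 0.411 CPM), *Kcna1* at 2.12 CPM (24 counts, next 0.240 CPM) and *Mbp* at 11.3 CPM (128 counts, next 3.28 CPM). The same library held 198 of the 229 counts of *Colq* and 80 of the 95 counts of *Chrnd*, both synaptic genes of the muscle fibre, in its group, but 44 of the 249 counts of *Musk* and 438 of the 1158 of *Utrn*, which other libraries exceeded in CPM.

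In replicate 1 of 10m xNMJ, the shallowest library of all, *Kcna1* was at 4.35 CPM (14 counts, every other library of the group at 0), *Sox10* at 1.86 CPM (6 counts) and *Mag* at 2.79 CPM (9 counts). *Cnp* was at 5.56 CPM in replicate 4 of 10m xNMJ (45 counts, next 1.56 CPM) and *Sox10* at 0.825 CPM in replicate 4 of 30m xNMJ, on 4 counts. One NMJ library was among them, replicate 5 of 30m NMJ, with *Cdh19* at 47.0 CPM (877 counts, next 14.0 CPM), which was also the deepest library of its group.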

How the results depend on the processing

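All 8 genes were called higher in NMJ at both ages, and 0 of 8 between the ages, in either region or in the interaction, under every alternative run, except that the fit of the xNMJ groups alone tested 3 of the 8. No called value changed direction. The numbers of genes called in all changed more. At 10 months, 434 were lower in NMJ with insert size as a covariate, against 706. With limma on log2(TPM + 1) there were 2631 higher and 227 lower at 10 months and 3414 and 48 at 30 months, and on log2(TPM + 0.1) 2596 and 202, and 3435 and 42, against 909 and 706 at 10 months and 700 and 595 at 30 months by edgeR. On log2(TPM + 1) the median of all genes shifted by 0.41 and 0.53. Between the ages, limma on log2(TPM + 1) called 2 genes higher in NMJ, against 0. In xNMJ, against 5 higher and 1 lower, DESeq2 called 49 and 33, insert size left 1 higher, and limma at either pseudocount and a fit of the 2 compared groups alone called 0 and 0. Leaving out single libraries gave 0 to 6 higher and 0 to 2 lower. In the interaction DESeq2 called 2 higher and 7 lower, and leaving out single libraries gave 0 to 1 lower.

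The replicate numbers were not taken to pair NMJ and xNMJ libraries, since not every pair correlated above 0.1. Over 16 same-numbered pairs the correlation of deviations lay between -0.018 and 0.37, 5 were above 0.1, and 8 of 16 libraries correlated best with their own number, which is a hint from the data and not from the design. The highest value was that of replicate 5 at 30 months, the number carried by both the xNMJ and the NMJ library flagged above for *Cdh19*. With the number as a block, all 8 genes were called at both ages, with 1032 and 870 genes higher in all. Some ratios between regions, taken unlogged, moved by over 1.5 times with the block. Their log2 values with the block were *Kcna1* (7.63 at 10 months and 7.11 at 30 months), *Sox10* (6.52 at 10 months), and at 30 months *Cdh19* (5.83), *S100b* (5.96), *Cnp* (3.60), *Mbp* (4.57) and *Pmp22* (3.41). Among uncalled values, *Cdh19* and *S100b* gave 1.97 and 0.85 by age in xNMJ and -1.25 and -1.62 in the interaction. With the block, 0 genes higher and 0 lower were called between the ages in xNMJ. Uncalled values that changed sign with the block were *Sox10* (0.034) and *Mag* (0.028) by age in NMJ and *Sox10* (-0.15), *Kcna1* (-0.52) and *Mbp* (0.23) in the interaction.

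Other uncalled log2 values that changed sign, with no cause tested, were *Sox10* (0.056 and 0.071) and *Mag* (0.18 and 0.20) by age in NMJ with limma at pseudocounts of 1 and 0.1, and *Mbp* in the interaction with insert size (0.17) and limma at 0.1 (0.31). Leaving out single libraries gave ranges by age in NMJ of -0.68 to 0.30 for *Cdh19*, -0.15 to 0.19 for *Cnp*, -0.052 to 0.36 for *Kcna1*, -0.31 to 0.025 for *Mag* and -0.22 to 0.074 for *Sox10*. By age in xNMJ they were -0.84 to 3.96 for *Cdh19*, -3.30 to 4.90 for *Kcna1*, -0.14 to 2.36 for *S100b* and -1.54 to 0.96 for *Sox10*. In the interaction they were -4.02 to 0.79 for *Cdh19*, -4.80 to 3.40 for *Kcna1*, -0.39 to 0.90 for *Mbp* and -1.09 to 1.41 for *Sox10*. The *Mbp* to *S100b* difference ranged from 0.29 to 0.72, and passed (exact permutation p = 0.047) only without replicate 5 of 30m NMJ. *Kcna1* values without single xNMJ libraries rest on 0 or 1 counts in a group and depend on the prior count. Of the 64 values in each xNMJ group, 36 and 37 were at or under 3 counts, where a lower level could not be told from absence.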
